A study of Mus musculus with 12 samples.

Results

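The liver's answer to TCPOBOP was compared between mice with and without hepatocyte YAP, as the change from day 0 to day 2 in knockout liver (KO) minus the same change in wild-type liver (WT). The comparison rests on 10 of the series' 12 arrays and was made for 13902 of the 18193 genes with a probe set of their own. It gave 270 genes, 1.94% of those tested, with an adjusted p under 0.05 (limma). The same difference can be written as KO minus WT at day 2 less KO minus WT at day 0, so each of these genes was placed by the day that supplied it. The day 2 level supplied at least 66.7% of the difference for 97 genes and the day 0 level for 42 genes, and for 131 genes each day supplied a part in opposite directions.

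The mice were females of 8 to 12 weeks with both Yap1 alleles floxed. KO mice received AAV8-TBG-Cre and WT mice AAV8-TBG-GFP, so both carried virus and floxed alleles, and the groups differ in Cre against GFP. TBG is a hepatocyte promoter, and other liver cells keep Yap1. TCPOBOP in corn oil was given once by gavage at 3 mg/kg, 10 days after the virus, and the day 0 mice had virus only, so vehicle and gavage are part of every day 2 against day 0 change. There were 2 arrays per genotype at day 0, 3 at day 2 and 1 array of pooled RNA per genotype at day 1. The labels do not say that replicates are separate animals, so p-values measure the spread between these arrays, which may be technical. Signals below are quantile-normalized MAS5 intensities, and differences are on the log2(value + 16) scale, which understates the changes of dim genes; ± is limma's standard error (SE) over the 10 arrays.

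TCPOBOP activates the constitutive androstane receptor (CAR), a nuclear receptor that induces drug-metabolizing enzymes and drives hepatocytes into the cell cycle without injury. YAP is the co-activator restrained by the Hippo kinases, and with TEAD factors it switches on growth and cell-cycle genes. Because a difference between 2 responses can arise before the drug is given, the level on each day has to be read beside it.

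Yap1, the targeted gene, gave signals of 1218 and 1314 in WT at day 0, 1220, 1065 and 1295 in WT at day 2, 648 and 584 in KO at day 0 and 551, 514 and 780 in KO at day 2. Every KO array was below every WT array on both days. KO minus WT was -1.02 ± 0.21 at day 0 (adjusted p = 0.0956) and -0.96 ± 0.17 at day 2 (adjusted p = 0.0112), and the difference between the responses was 0.06 (95% interval -0.52 to 0.65, adjusted p = 0.924). The place of its probes relative to the floxed exons is not given in the sources used here. In whole liver, fewer cells of a type and less RNA per cell cannot be told apart.

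Of the 270 genes, 126 (0.906% of those tested) had a higher and 144 (1.04%) a lower difference, and 2696 genes passed an unadjusted p of 0.05. The responses ran in opposite directions for 197 of the 270 genes, whether or not each response was called, and in the same direction for the others, smaller in KO for 49 and larger for 24. Over all 13902 tested genes these counts were 6325, 4077 and 3500. Calling genes on the difference itself favours opposite directions. Among all tested genes the day 0 level supplied the difference for 31.5%, the day 2 level for 45.2% and both for 23.3%, against 15.6%, 35.9% and 48.5% of the 270. These shares come from the same values as the calls. A large difference is reached more easily where the days stand on opposite sides, so the larger share of both is not a separate result. The 2 days are not equally precise, since the median standard error was 0.26 at day 0, with 2 arrays a group, and 0.21 at day 2, with 3. KO and WT differed at day 0 in 23 genes (0.165%), 9 higher in KO (0.0647%) and 14 lower (0.101%). At day 2 they differed in 1047 genes (7.53%), 509 higher (3.66%) and 538 lower (3.87%). From day 0 to day 2, 1766 genes changed in WT (12.7%), of which 920 rose (6.62%) and 846 fell (6.09%). In KO 1313 changed (9.44%), of which 665 rose (4.78%) and 648 fell (4.66%). Of 604 genes called in both responses in the same direction, 19 were called in the difference, and 24 genes were called in both responses in opposite directions.

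**Figure D1:**
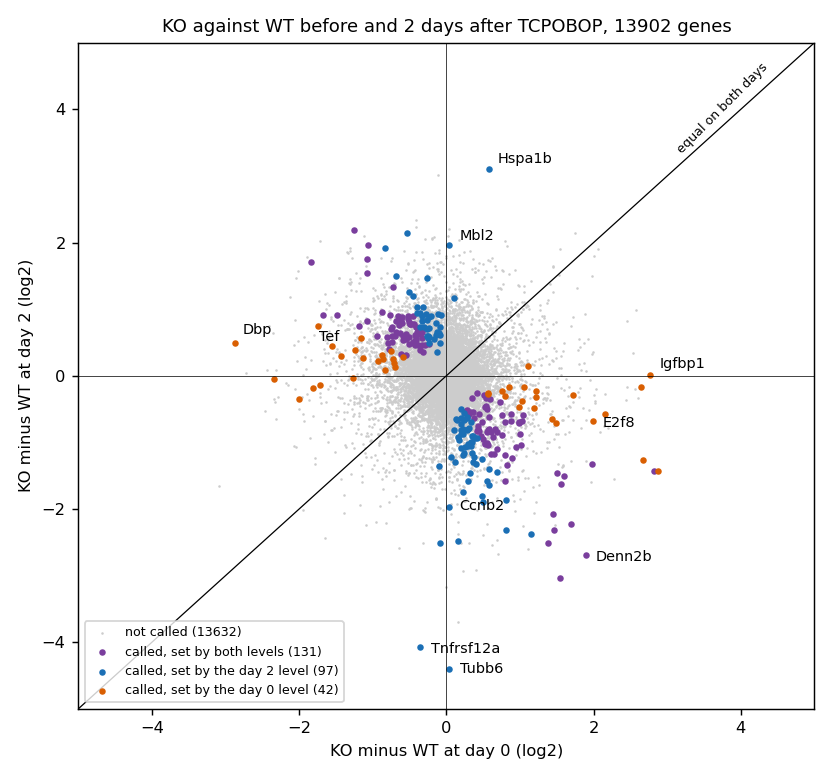
Each point is 1 of 13902 genes, with KO minus WT at day 0 on the x axis and at day 2 on the y axis (both log2), and distance from the diagonal is the difference between the responses. The 42 genes set by the day 0 level lie along the x axis, the 97 set by the day 2 level along the y axis, and the 131 set by both in the upper left and lower right.

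The day 2 arrays of the genotypes also differed in spiked controls and in the top of the signal range. Each array had been scaled to a trimmed mean of 500, so a spiked signal also depends on the liver RNA on its array. The 9 probe sets for spiked bacterial controls had a geometric mean of 933 to 1340 units on the KO day 2 arrays, against 2887 to 3085 on the WT day 2 arrays, 1988 on both WT day 0 arrays and 2261 to 2443 on the KO day 0 arrays. Their median difference between the responses was -1.45 after quantile normalization, with a range of -2.16 to -1.11. The highest signal was 48217 to 67457 on the KO day 2 arrays and 103216 to 116918 on the WT day 2 arrays. The 3'/5' ratio of Actb, a sign of RNA integrity, lay between 1.53 and 2.11 over all arrays. The part of these shifts in the results was not tested. With 13.8% of calls on the higher side when arrays were only centred on their medians, and 35.3% with values as deposited, against 46.7% here, the split of the calls by direction depends on the scaling. Centring also moved the median difference over all genes from 0.08 to -0.07.

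The calls depended on single arrays. Without WT day 0 replicate 2, 22 genes were called, and without KO day 0 replicate 1, 674; the other 8 fits that left out 1 array gave 49 to 234. All 270 genes kept their direction in all 10 of these fits, but only 152 kept their set in all 10, 28 of the 42 set by day 0, 61 of the 97 set by day 2 and 63 of the 131 set by both. The others crossed the 66.7% line between a single day and both in at least 1 fit, and none went from the day 0 set to the day 2 set or back. The call itself was kept in all 10 fits by 12 genes, 7 set by day 2, 1 by day 0 and 4 by both, and of the 70 called genes named here by Mbl2, Tnfrsf12a, Cdkl4, H2-Q5, Dbp, Maz and Denn2b. Of the other named genes 17 lost it in 1 to 3 fits and 46 in 4 or more, and for 48 of the 70 the highest adjusted p came without WT day 0 replicate 2.

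Among genes set by the day 2 level, 39 had a higher and 58 a lower difference, and KO and WT did not overlap at day 2 in any of the 97 (33.3% of all tested genes do not). The call and the rule for the set favour such a gap. Tnfrsf12a, the receptor for the cytokine TWEAK, gave 125 on both WT arrays of day 0 and 2453, 3548 and 2223 on those of day 2. In KO the signals were 135 and 64.3 before TCPOBOP and 151, 139 and 142 after. The 3 WT day 2 arrays stood far above the other 7 of days 0 and 2, among which KO day 2 lay just above day 0. Those 7 signals are dim, below the arrays' median signal (231.6 to 277 units before quantile normalization), so their order says little. By these signals the probe set passed the filter on dim probe sets only through WT day 2, the group where it is high. A second probe set and fits with 1 array left out use the same arrays and are not separate support. The response was 4.26 in WT and 0.54 in KO, a difference of -3.72 ± 0.46 (adjusted p = 0.00991), and a second probe set gave -5.38. Leaving out an array kept it between -4.20 and -3.25 with an adjusted p of at most 0.046.

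Mbl2, a mannose-binding lectin that hepatocytes secrete to start the lectin pathway of complement, had the opposite pattern. Its signals were 23011 and 20400 in WT at day 0 and 5988, 6755 and 5980 at day 2, against 19821 and 24791 in KO at day 0 and 24116, 23991 and 24791 at day 2. WT day 2 was the only low group, and the KO arrays of both days overlapped. The difference was 1.93 ± 0.16 (adjusted p = 0.000828), with KO minus WT at 0.03 on day 0 and 1.96 on day 2. In the fits that left out 1 array it stayed between 1.76 and 2.08.

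Hspa1b, an inducible HSP70 chaperone whose near-identical copy Hspa1a its probes may also read, gave 491 and 718 in WT at day 0 and 555, 553 and 995 at day 2. The KO signals were 701 and 1132 before TCPOBOP and 4436, 7143 and 6614 after. KO day 2 stood above the other arrays of days 0 and 2, and the difference was 2.54 ± 0.43 (adjusted p = 0.0231). Other probe sets of the gene gave 1.46 and 1.54, and the adjusted p reached 0.0876 without WT day 0 replicate 2. Dnah5, a dynein heavy chain, went from 495 and 476 to 104, 89.0 and 80.1 in WT, while KO gave 406 and 266 at day 0 and 460, 453 and 443 at day 2. WT day 2 was again the only low group. Its difference was 2.67 ± 0.44 (adjusted p = 0.0209), and 0.0858 at most with 1 array left out. Cdkl4, a kinase related to the cyclin-dependent kinases, gave 932, 938 and 902 in WT and 2719, 2990 and 2131 in KO at day 2, with a difference of 1.73 ± 0.22 (adjusted p = 0.00991).

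Several abundant liver genes were also higher through day 2, by smaller amounts. Tdo2, which begins tryptophan breakdown, gave 26008 and 28495 in WT and 25352 and 23991 in KO at day 0. At day 2 it gave 21778, 18448 and 18230 in WT and 33009, 35327 and 32355 in KO. KO lay below WT at day 0 and above it at day 2. The difference was 0.93 ± 0.14 (adjusted p = 0.0164), and 0.0746 without WT day 0 replicate 2. Akr1d1, an enzyme of bile acid synthesis, had a difference of 0.75 ± 0.16, the acute phase protein Crp 0.58 ± 0.13 and the ethanol-metabolizing Cyp2e1 0.48 ± 0.11 (adjusted p = 0.0435, 0.0435 and 0.0458). A dimmer probe set of Akr1d1 gave 0.43. The directions of Crp and Cyp2e1 depend on the scaling: on median-centred arrays Crp was at -0.050 and Cyp2e1 at -0.67. The lower top of the signal range on the KO day 2 arrays goes with these bright genes, and its part was not tested. The calls of Akr1d1, Crp and Cyp2e1 were lost in at least 8 of the 10 fits with 1 array left out.

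H2-Q5, a class I histocompatibility gene of a family with close copies, was lower through day 2. It gave 595 and 793 in WT and 1074 and 2210 in KO at day 0, then 822, 1226 and 1388 in WT and 192, 244 and 179 in KO. KO was the higher genotype before TCPOBOP and the lower one after it, with no overlap on either day. The difference was -3.52 ± 0.44 (adjusted p = 0.00991). Nfic, a transcription factor of the NFI family, had a difference of -2.64 ± 0.43, St6galnac6, a sialyltransferase, -3.12 ± 0.51 and Eif2b1, a subunit of a translation initiation factor, -2.43 ± 0.49. Hsd17b13, a lipid droplet enzyme of hepatocytes, had -1.09 ± 0.18. Other probe sets of Nfic gave -1.02 and -1.51 and a dimmer one of Hsd17b13 -0.32. These 4 genes had adjusted p between 0.0209 and 0.0338 and lost the call in 1 to 8 of the 10 fits.

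**Figure D2:**
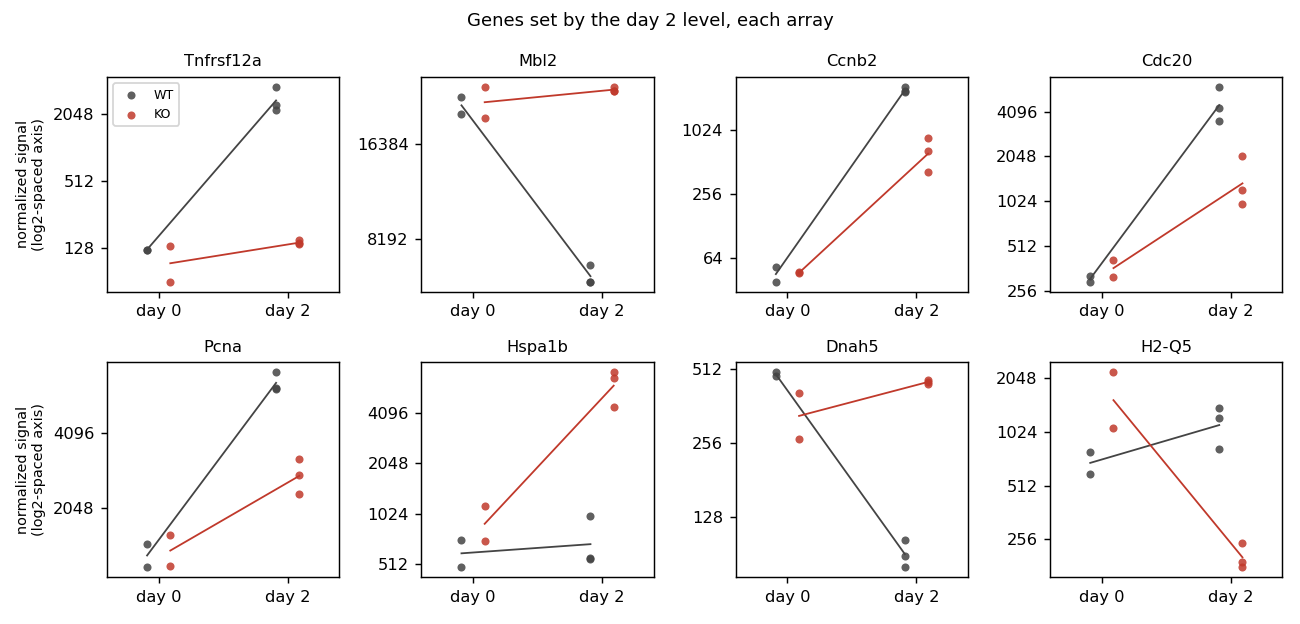
Normalized signal (log2-spaced axis) of 8 genes set by the day 2 level, with 1 point per array (2 per genotype at day 0, 3 at day 2) and lines between group means. Tnfrsf12a, Ccnb2, Cdc20 and Pcna are highest in WT at day 2, Mbl2 and Dnah5 are low only there, Hspa1b is high only in KO at day 2 and H2-Q5 is low only there.

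The list of G2/M and mitosis genes has 47 measured members, 6 of them with a lower difference and none with a higher one, and 35 of the 47 were below 0. Of all tested genes 1.04% had a lower and 0.906% a higher difference. Ccnb2, Cdc20 and Smc4 were set by the day 2 level, and Plk1, Ccnf and Smc2 by both. The median difference was -0.73, against 0.08 for all genes tested, and it stayed between -0.89 and -0.70 under the other scalings. The members' median of KO minus WT was -0.01 at day 0 and -0.73 at day 2. These medians do not divide the difference of each member between the days, since members on opposite sides at day 0 cancel. At day 2 alone, 19 members were lower in KO and 1 higher, against 3.87% and 3.66% of all tested genes. At day 0 none passed by limma and 10 had an unadjusted p under 0.05, which 1187 of all 13902 tested genes had. In WT 29 of the 47 rose and 1 fell from day 0 to day 2, and in KO 15 rose and 1 fell. Over all tested genes 6.62% rose and 6.09% fell in WT, and 4.78% rose and 4.66% fell in KO.

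Ccnb2, cyclin B2, gave 52.6 and 37.8 in WT and 46.4 and 45.6 in KO at day 0. At day 2 it gave 2601, 2366 and 2322 in WT and 858, 406 and 651 in KO. The genotypes overlapped at day 0, both rose, and KO stayed below WT at day 2. The difference was -1.99 ± 0.44 (adjusted p = 0.0443). Cdc20, the activator of the anaphase-promoting complex, gave 322 and 293 in WT and 318 and 413 in KO at day 0, then 6017, 4355 and 3558 in WT and 2052, 978 and 1218 in KO. Its difference was -1.96 ± 0.41 (adjusted p = 0.0379), and -2.74 by another probe set. Smc4, a condensin subunit, followed with -1.42 ± 0.25 (adjusted p = 0.0253). These calls are near the threshold: leaving out 1 array gave Ccnb2 differences from -2.24 to -1.72, Cdc20 from -2.27 to -1.75 and Smc4 from -1.60 to -1.25, and ended the call in 8, 8 and 7 of 10 fits. Cdk1, the mitotic kinase, at -1.18 (95% interval -2.10 to -0.26, adjusted p = 0.158), Top2a, the topoisomerase that untangles chromosomes, at -1.32 (-2.02 to -0.62, 0.0586) and Mki67 at -0.91 (-2.09 to 0.27, 0.381) did not pass the test of the difference.

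Mitotic genes are known for a pair of short promoter elements, CCAAT, which NF-Y binds, and TTTGAA, a form of the cell-cycle genes homology region bound by MuvB complexes. Promoters of 3 called members are shown because both elements occur in each. The sequences run 5' to 3' from 200 bases before to 30 bases after the start of the RefSeq gene, with each CCAAT or TTTGAA, or its reverse complement, in capitals.
Ccnb2 promoter (GRCm38.p6 chr9:70421525-70421754, minus strand): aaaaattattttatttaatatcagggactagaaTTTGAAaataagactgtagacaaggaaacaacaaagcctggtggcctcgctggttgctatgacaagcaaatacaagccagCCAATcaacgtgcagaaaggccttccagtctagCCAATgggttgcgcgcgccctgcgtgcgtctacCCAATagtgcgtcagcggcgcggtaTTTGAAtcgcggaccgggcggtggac
Cdc20 promoter (GRCm38.p6 chr4:118437314-118437543, minus strand): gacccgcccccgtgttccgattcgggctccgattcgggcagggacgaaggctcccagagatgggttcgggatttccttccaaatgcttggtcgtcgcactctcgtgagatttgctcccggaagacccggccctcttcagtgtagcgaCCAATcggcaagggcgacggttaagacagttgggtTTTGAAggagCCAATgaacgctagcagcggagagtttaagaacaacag
Ccnf promoter (GRCm38.p6 chr17:24251380-24251609, minus strand): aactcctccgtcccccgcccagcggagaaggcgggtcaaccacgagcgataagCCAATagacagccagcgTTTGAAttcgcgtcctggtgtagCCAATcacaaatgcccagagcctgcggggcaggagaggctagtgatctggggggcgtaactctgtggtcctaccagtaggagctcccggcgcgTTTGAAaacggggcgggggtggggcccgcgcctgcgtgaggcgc
In windows of 300 bases, from 250 before to 50 after the start, and on both strands, 31 of the 41 members of the list with a promoter in the RefSeq table held CCAAT and 31 held TTTGAA. Among the 11135 tested genes with a promoter there, CCAAT was found in 37.8% and TTTGAA in 12.7%. All 5 called members with a promoter held both. A match is a run of letters and does not show binding, and members were listed for their known role in mitosis, so the shares describe the list and not the response.

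The replication genes were called in both directions. Pcna, the sliding clamp of DNA polymerase, gave 1483 and 1197 in WT and 1610 and 1206 in KO at day 0. At day 2 it gave 6182, 6125 and 7118 in WT and 3218, 2782 and 2346 in KO. All day 2 arrays lay above all day 0 arrays, with KO below WT. The difference was -1.29 ± 0.24 (adjusted p = 0.0298). Mcm7, a helicase subunit, had -1.09 ± 0.18 (adjusted p = 0.0231), but of its other probe sets 1 that is nearly as bright gave 0.06. The list of 34 measured replication genes had 3 with a lower difference (Pcna, Mcm7 and Gins1) and 2 with a higher one (Mcm4 and Mcm10). These shares were 1.04% and 0.906% over all tested genes, and the list's median was -0.35. At day 2 alone 7 were lower and 1 higher, against 3.87% and 3.66% of all tested genes. Without 1 array, the Pcna difference ran from -1.49 to -1.07 and its adjusted p reached 0.104, and that of Mcm7 reached 0.0871, both without WT day 0 replicate 2.

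The set fixed by the day 0 level holds 21 genes with a higher and 21 with a lower difference, and at day 2 KO against WT passed limma's test in none of the 42, with 17 at an unadjusted p under 0.05, while 14 passed at day 0. Of all 13902 tested genes, 3498 had such an unadjusted p at day 2 and 23 passed at day 0. At day 0 the genotypes did not overlap in any of the 42 (35.9% of all tested genes do not), a gap that the call and the rule favour. At day 2 they did not overlap in 18 (33.3% of all tested genes do not). The median of KO minus WT went from -1.16 at day 0 to 0.25 at day 2 for the genes with a higher difference and from 1.22 to -0.31 for those with a lower one, a smaller size at day 2 that the rule for the set requires. The differences of largest size were those of the dim genes Actr5, at -4.31 with 1.01 from another probe set, and A330048O09Rik, at -3.92.

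Dbp, Tef and Nr1d2, transcription factors tied to the circadian clock, were all set by the day 0 level. Dbp, a clock output factor, gave 2566 and 4477 in WT but 354 and 570 in KO at day 0, and 1719, 2623 and 3278 in WT against 3379, 3565 and 3444 in KO at day 2. KO was far below WT before TCPOBOP and slightly above it after. KO minus WT was -2.87 at day 0 (adjusted p = 0.012) and 0.49 at day 2 (adjusted p = 0.257), which made a difference of 3.37 ± 0.40 (adjusted p = 0.00991). The second Dbp probe set gave 4.21, and the difference ran from 2.98 to 3.77 with 1 array left out. Tef, of the same family, gave 3969 and 5332 in WT and 2046 and 1840 in KO at day 0, then 2445, 3418 and 3398 in WT and 4206, 4036 and 3788 in KO. The order of the genotypes turned between the days, with a difference of 1.63 ± 0.24 (adjusted p = 0.0164). Nr1d2, the clock repressor REV-ERB beta, gave 1895 and 3568 in WT and 885 and 1022 in KO at day 0, and its difference was 1.73 ± 0.31 (adjusted p = 0.0271), with 0.48 by a dimmer probe set. Without WT day 0 replicate 2 the differences of Tef and Nr1d2 were 1.42 and 1.28 and neither was called (adjusted p = 0.0674 for both).

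These 3 were the called members among 19 measured clock genes, and 0.906% of all tested genes had a higher difference. All 3 also differed between the genotypes at day 0, as 0.165% of all tested genes did. The call and the rule for the set favour such a day 0 difference, so it is not separate support. At day 2, 1 clock gene was higher in KO and 3 were lower, against 3.66% and 3.87% of all tested genes. Per2, a core clock repressor, had a difference of 2.48 (95% interval 1.19 to 3.77) and missed the threshold at an adjusted p of 0.057, and Arntl, the clock activator BMAL1, had 0.62 (-0.01 to 1.26, 0.268). The list's median difference was 0.58, and 11 of 19 were above 0. The hour at which livers were taken is not given in the sources used here. CACGTG is the E-box that the CLOCK and BMAL1 pair binds, and 1 of the 2 Tef promoters in the RefSeq table is shown because it holds one, in capitals with CCAAT or its reverse complement ATTGG.
Tef promoter (GRCm38.p6 chr15:81802473-81802702, plus strand): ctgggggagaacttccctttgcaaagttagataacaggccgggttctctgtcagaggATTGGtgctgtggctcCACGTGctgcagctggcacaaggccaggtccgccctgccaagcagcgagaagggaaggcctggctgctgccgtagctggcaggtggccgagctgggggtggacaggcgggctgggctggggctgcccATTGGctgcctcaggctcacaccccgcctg
CACGTG occurred in 2 of the 15 day 0 genes with a higher difference that have a promoter in the table, and in 9.41% of tested genes.

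Igfbp1 and Angptl8, which respond to insulin and feeding, were also set by the day 0 level. Igfbp1, a secreted IGF-binding protein that insulin represses, gave 1174 and 2644 in WT and 16142 and 9079 in KO at day 0, then 890, 1117 and 890 in WT and 694, 1171 and 1120 in KO. KO was the high group at day 0, and at day 2 the genotypes overlapped. The difference was -2.75 ± 0.48 (adjusted p = 0.0245), with KO minus WT at 2.77 on day 0 and 0.01 on day 2. G6pc, the last enzyme of glucose release, gave 3302 and 3073 in WT and 14825 and 20637 in KO at day 0, and KO minus WT was 2.45 there (adjusted p = 0.02). Its difference of -1.63 (95% interval -2.53 to -0.73) did not pass (adjusted p = 0.0672). Angptl8, a feeding-induced inhibitor of lipoprotein lipase, moved the other way, with 2189 and 2991 in WT and 541 and 723 in KO at day 0 and a difference of 1.66 ± 0.29 (adjusted p = 0.0271). KO was below WT on all day 0 arrays. Of 21 measured genes of the glucocorticoid and FOXO fasting response 1, Igfbp1, was called, and 1.04% of all tested genes had a lower difference. The list's median difference was -0.08, with median KO minus WT at 0.25 on day 0 and 0.22 on day 2. At day 0, 3 members differed by limma, against 0.165% of all tested genes. The summed signal, Igfbp1 included, was 67870 to 82222 in WT and 122570 to 130605 in KO at day 0. At day 2 it was 43259 to 46790 in WT and 53738 to 63371 in KO. The Igfbp1 call was lost without WT day 0 replicate 1, WT day 2 replicate 2 or WT day 2 replicate 3 (adjusted p at most 0.0585), and that of Angptl8 without WT day 0 replicate 2 and 3 others (at most 0.0973).

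Some cell-cycle genes were set by the day 0 level. Ccnd1, cyclin D1, gave 5529 and 5327 in WT and 3430 and 2667 in KO at day 0, and 7408, 8199 and 7865 in WT and 7295, 8262 and 9517 in KO at day 2. KO started lower and the genotypes overlapped at day 2. The difference was 0.93 ± 0.19 (adjusted p = 0.0387), lost in 8 of the 10 fits, and its 3 probe sets disagree, the dimmest at -0.74. E2f8, a repressor of the E2F family, gave 91.0 and 94.5 in WT and 423 and 414 in KO at day 0, and 827, 780 and 846 in WT and 413, 787 and 388 in KO at day 2. Its WT day 0 signals are dim, below the arrays' median signal (231.6 to 277 units before quantile normalization). KO was already at its day 2 level before TCPOBOP, and the difference was -2.68 ± 0.41 (adjusted p = 0.0192), with 0.0672 without WT day 0 replicate 2. Plk3, a stress-activated polo-like kinase, had -2.81 ± 0.53 and Samd1, a chromatin protein, -2.74 ± 0.41 (adjusted p = 0.0304 and 0.0164). Their WT day 0 signals, 23.2 and 70.6 for Plk3 and 80.6 and 83.5 for Samd1, are dim in the same sense. The day 0 part of both thus rests on dim values, and Plk3 lost its call in 7 of the 10 fits. Mcm4, a helicase subunit, had 1.62 ± 0.34 (adjusted p = 0.0389) but -0.77 by its dimmer probe set.

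**Figure D3:**
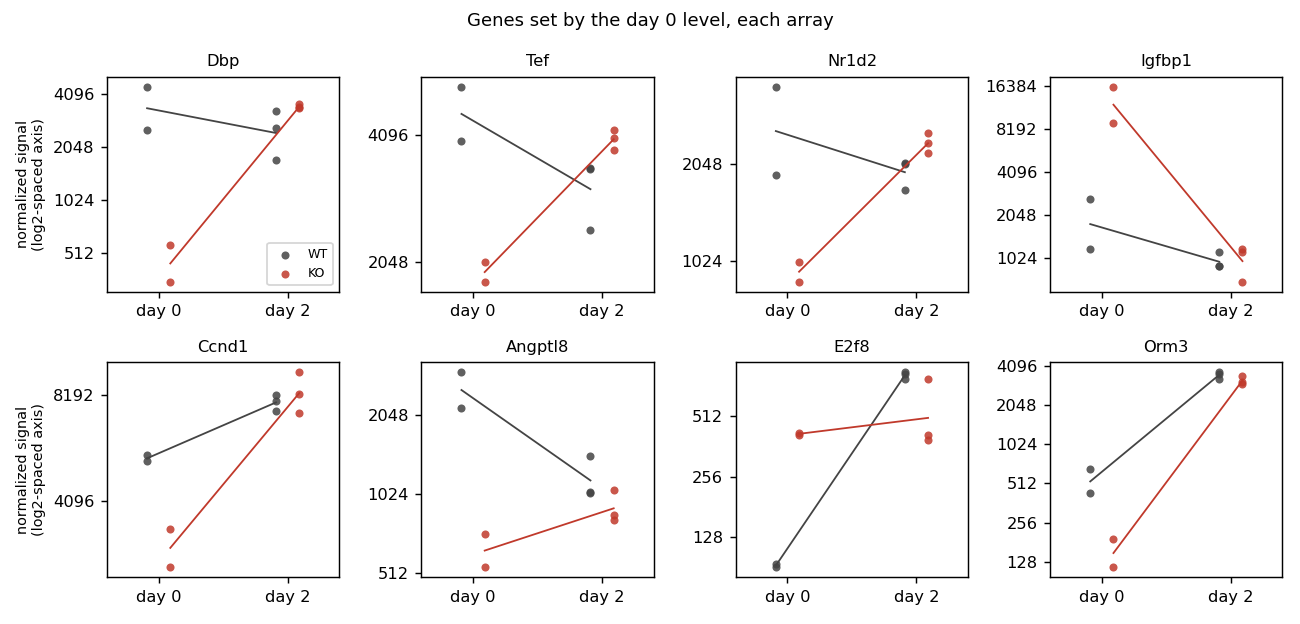
Normalized signal (log2-spaced axis) of 8 genes set by the day 0 level, with 1 point per array and lines between group means. KO starts below WT for Dbp, Tef, Nr1d2, Ccnd1, Angptl8 and Orm3 and above it for Igfbp1 and E2f8, and at day 2 KO minus WT is smaller in size for each of the 8, as the rule for the set requires.

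Other genes set by the day 0 level included Orm3, Zfp36, Vnn1 and Cpt1a. Orm3, an orosomucoid with close family copies, gave 654 and 428 in WT and 191 and 116 in KO at day 0 and 3261 to 3651 in WT and 2977 to 3411 in KO at day 2, with a difference of 1.58 ± 0.30 (adjusted p = 0.0298). It rose in both genotypes, from a lower start in KO. Zfp36, which speeds decay of cytokine mRNAs, gave 3388 and 3020 in WT and 1896 and 1582 in KO at day 0, and 1236, 1531 and 1359 in WT and 1637, 1656 and 1827 in KO at day 2. Zfp36 fell in WT, and the KO arrays of the 2 days overlapped, with a difference of 1.19 ± 0.19 (adjusted p = 0.0209). Vnn1, a pantetheinase induced by PPAR alpha, had 1.12 ± 0.23 and Cpt1a, the gatekeeper of mitochondrial fatty acid oxidation, 0.84 ± 0.18 (adjusted p = 0.0388 and 0.039). Dimmer probe sets of Cpt1a gave 0.96 and 0.06. Leaving out 1 array ended these 4 calls in 6, 3, 8 and 9 of 10 fits, with adjusted p up to 0.0802, 0.0721, 0.118 and 0.119.

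In the third set, KO and WT stood on opposite sides on the 2 days, with 66 genes higher and 65 lower. At day 0 none of these passed limma's test of KO against WT, with 118 at an unadjusted p under 0.05, and at day 2 105 passed. Of all 13902 tested genes, 1187 had such an unadjusted p at day 0 and 1047 (7.53%) passed at day 2. The call and the rule for the set favour low p-values on both days, so these counts are not separate support. Maz, a zinc finger transcription factor, gave 189 and 104 in WT and 483 and 502 in KO at day 0, then 583, 601 and 580 in WT and 96.6, 120 and 126 in KO. The genotypes exchanged places, with a difference of -3.92 ± 0.46 (adjusted p = 0.00991). The WT day 0 and KO day 2 signals of Maz are dim, below the arrays' median signal (231.6 to 277 units before quantile normalization). Denn2b, a guanine nucleotide exchange factor for Rab proteins, gave 325 and 98.6 in WT and 790 and 660 in KO at day 0, then 686, 513 and 589 in WT and 118, 54.7 and 71.0 in KO. Its KO day 2 signals and its WT day 0 signal of 98.6 are dim in the same sense. Denn2b exchanged places in the same way, with -4.60 ± 0.65 (adjusted p = 0.0164). With 1 array left out these stayed called, at -4.29 to -3.54 and -5.37 to -3.82.

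Mitotic genes were found here too. Plk1, the main mitotic polo-like kinase, gave 144 and 45.4 in WT and 243 and 312 in KO at day 0, then 1016, 702 and 834 in WT and 338, 281 and 186 in KO. WT day 2 was above the other arrays of days 0 and 2. The difference was -3.18 ± 0.59 (adjusted p = 0.0294), of which 1.55 came from day 0. Ccnf, cyclin F, had -3.88 ± 0.67 (adjusted p = 0.0243) and the condensin subunit Smc2 -3.10 (adjusted p = 0.038). Most of the day 0 signals of Plk1 and Ccnf lie below the arrays' median signal, which was 231.6 to 277 units before quantile normalization. The day 0 part thus rests on dim values. For Ccnf the KO day 2 signals of 52, 59.2 and 84.2 are dim too, so its day 2 part has the same limit. Plk1 lost its call in 7 and Ccnf in 6 of the 10 fits, with adjusted p up to 0.0819 and 0.0752.

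Higher differences in this set included secretory pathway, glucose and CYP genes. Herpud1, of endoplasmic reticulum-associated degradation, gave 6192 and 6638 in WT and 5212 and 4196 in KO at day 0, and 2808, 2994 and 3416 in WT and 4866, 5610 and 6861 in KO at day 2, for a difference of 1.35 ± 0.22 (adjusted p = 0.0209). A second probe set, somewhat dimmer, gave 0.38 ± 0.42 (unadjusted p = 0.39). By the brighter one Herpud1 fell in WT, and the KO arrays of the 2 days overlapped. Dnajb9, an HSP70 co-chaperone of the same compartment, gave 6195 and 6135 in WT and 4341 and 4423 in KO at day 0 and 8217, 10708 and 11288 in KO at day 2, where WT gave 5446 to 6538. Its difference was 1.27 ± 0.20 (adjusted p = 0.02). These were the 2 called of 20 measured genes of the unfolded protein response, whose median was -0.07. A higher difference was called for 0.906% of all tested genes. Slc2a2, the glucose transporter GLUT2, gave 9122 and 11189 in WT and 6280 and 5857 in KO at day 0, then 2136, 2127 and 3279 in WT and 4847, 4068 and 3474 in KO. Its difference was 1.46 ± 0.28 (adjusted p = 0.0306), and it was 1.32 without WT day 0 replicate 2, where it was not called (0.108). Herpud1 and Dnajb9 lost the call without that array too (0.0819 and 0.0746).

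The targets of CAR itself were read next. Cyp2b10, the standard CAR target, gave 1580 and 1763 in WT and 1742 and 1920 in KO at day 0, and 44192, 42264 and 43382 in WT and 49040, 46386 and 43610 in KO at day 2. It rose in both genotypes, by 4.68 in WT and 4.65 in KO, and the difference was -0.03 (95% interval -0.33 to 0.26, adjusted p = 0.921). Its probe sets disagree: a second, equally bright one gave -0.01, and another, also bright, gave -0.84 ± 0.22 (unadjusted p = 0.00309), with KO minus WT at 0.91 on day 0 and 0.07 on day 2. On arrays centred on their median the same gene had -0.75 (adjusted p = 0.0438), so its value depends on the scaling too. Cyp2c55, another strongly induced CYP, had 5.62 in WT and 5.91 in KO, a difference of 0.29 (-0.23 to 0.81, 0.524), which was called without KO day 0 replicate 1 at 0.65 (0.0342). Cyp2b9, of the same family and known as female-biased, did not rise: it gave 12677 and 9182 in WT and 6538 and 8585 in KO at day 0, then 6512, 5039 and 6265 in WT and 10740, 11034 and 10314 in KO. KO and WT exchanged places, with 1.38 ± 0.23 (adjusted p = 0.0228). Cyp2b13 had 1.68 ± 0.34 (adjusted p = 0.0347), and probes of this family may read more than 1 member. Cyp2b9 lost its call in 3 and Cyp2b13 in 8 of the 10 fits (adjusted p up to 0.0582 and 0.111).

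Of 24 measured CAR target and phase I genes, 3 had a higher difference (Cyp2b9, Cyp2b13 and Cyp2e1) and none a lower one, and 12 had an unadjusted p under 0.05. Over all 13902 tested genes 0.906% had a higher and 1.04% a lower difference, and 2696 had such a p. At day 2 alone 7 were higher in KO and 1 lower, against 3.66% and 3.87% of all tested genes. The direction depends on the scaling: with values as deposited 1 was called higher and 4 lower, on median-centred arrays 0 and 5, and the median of 0.40 turned to -0.20 and -0.39. In WT 16 of them rose and in KO 16. Of 28 phase II and transporter genes none passed by limma, 5 had an unadjusted p under 0.05, and the median of 0.12 turned to -0.31 and -0.50 under the same scalings. In WT 24 of the 28 rose and in KO 22. Over all tested genes 6.62% rose in WT and 4.78% in KO.

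**Figure D4:**
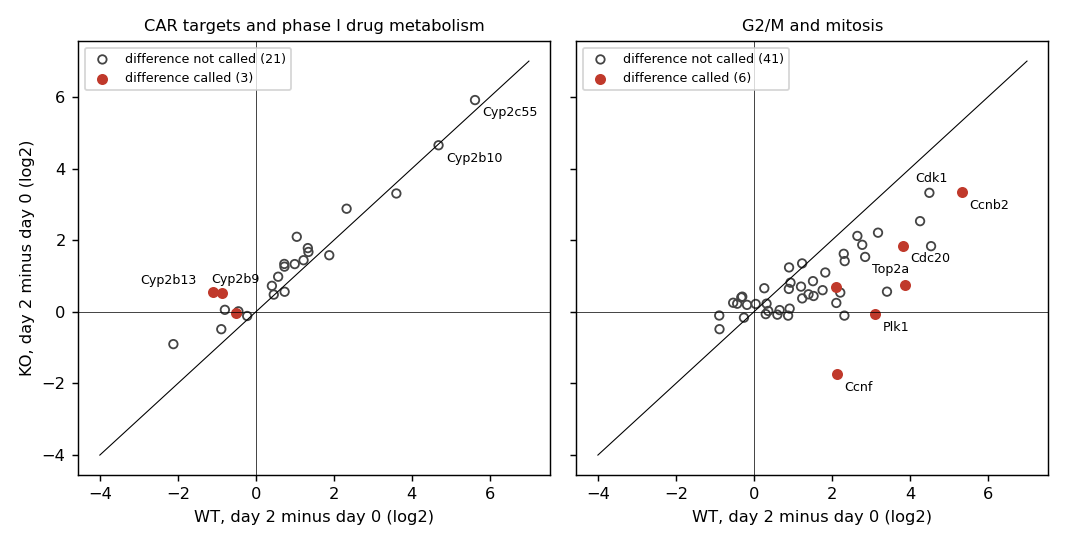
Change from day 0 to day 2 (log2) in WT on the x axis and in KO on the y axis for 24 CAR target and phase I genes and 47 genes of G2/M and mitosis, with filled points where the difference was called. Cyp2b10 and Cyp2c55 lie close to the line of equal change, and 35 of the 47 mitotic genes lie below it.

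YAP's own pathway gave no call. Of 21 measured YAP/TAZ target genes none passed by limma and 4 had an unadjusted p under 0.05, with a median difference of 0.16. Of all 13902 tested genes, 2696 had such a p, so the list is near that share. Ccn1 and Ccn2, matricellular proteins and common YAP reporters, had -0.99 (95% interval -2.02 to 0.05) and -0.49 (-1.71 to 0.72), intervals that are wide beside most called differences. Of 19 Hippo components none passed and 2 had an unadjusted p under 0.05. Nr1i3, the gene for CAR, had 0.21 (-0.26 to 0.68, adjusted p = 0.627), and Myc 0.67 (-0.56 to 1.90, adjusted p = 0.544).

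In each other list at most 3 members were called, and for some the direction depends on the scaling. The shares over all tested genes were 0.906% higher and 1.04% lower. With values as deposited 155 of all tested genes were called higher and 284 lower, and on median-centred arrays 71 and 445. Hepatocyte identity genes had 1 of 21 with a higher difference and a median of 0.02, but 0 higher and 9 lower with values as deposited (median -0.63) and on median-centred arrays (-0.82). Acute phase genes had 2 of 25 higher and 0 lower with a median of 0.07, against 1 higher and 4 lower as deposited (-0.53) and 0 and 4 when centred (-0.71). Immediate early and stress genes had 3 of 22 with a higher difference (Zfp36, Dusp6 and Hspa1b) and ribosome biogenesis 2 of 23 with a lower one, with a median of -0.45 that lay between -0.60 and -0.41 under the other scalings. Pericentral genes had a median of 0.50 with 1 of 14 called, and on median-centred arrays the median was 0.09. Cholesterol synthesis had a median of 0.38, which turned to -0.10 on median-centred arrays. By limma 0 of 16 were called and 6 had an unadjusted p under 0.05, against 2696 of all 13902 tested genes.

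**Figure D5:**
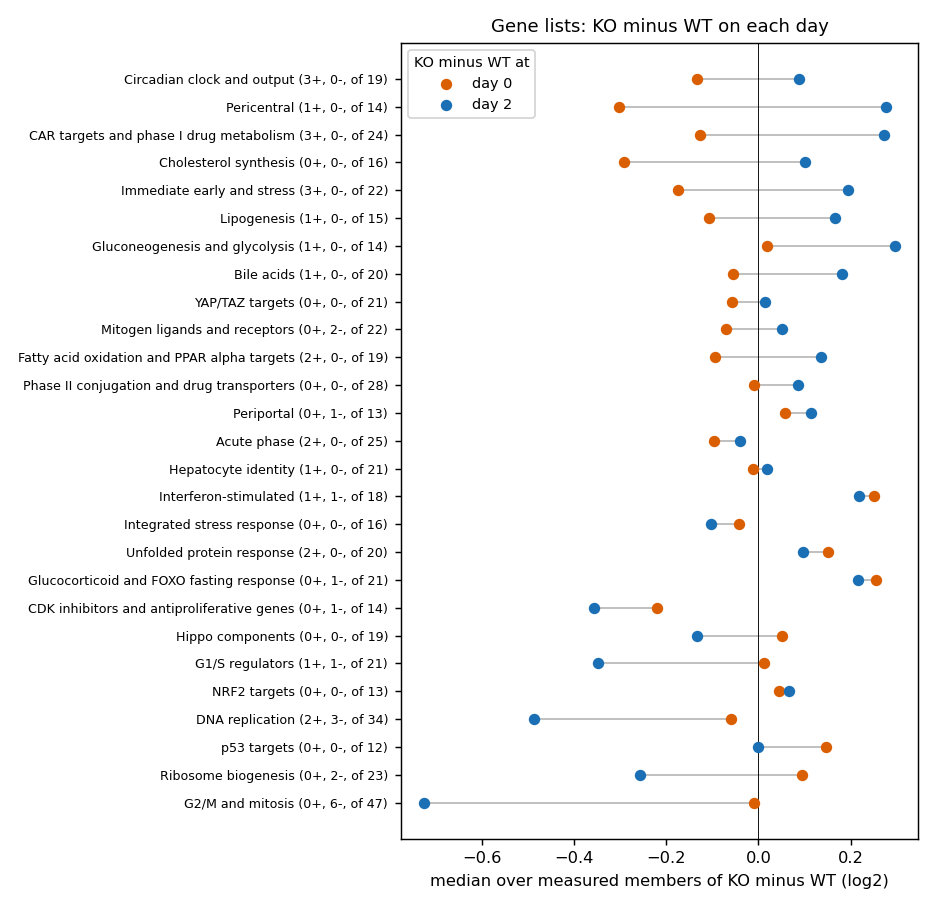
Median of KO minus WT (log2) over the measured members of each gene list at day 0 and at day 2, sorted by the median difference between the responses, with the number of members called higher (+) and lower (-) beside each name. The list of G2/M and mitosis genes is at -0.01 at day 0 and -0.73 at day 2, and the clock list at -0.13 and 0.09.

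Markers of other liver cells gave no called difference. Of 13 Kupffer cell and macrophage markers 1 had an unadjusted p under 0.05, of 12 endothelial markers 2, of 11 stellate markers 0 and of 9 lymphocyte markers 4, and none passed by limma. Over all 13902 tested genes 2696 had such a p. The summed signal of the Kupffer markers was 19636 to 19971 in WT and 17067 to 17599 in KO at day 0, and 16580 to 17971 in WT and 12059 to 18197 in KO at day 2. That of the stellate markers was 16193 to 17233 in WT and 17976 to 20714 in KO at day 0, and 11901 to 12359 and 13926 to 15387 at day 2. Hepatocyte identity genes summed to 660028 to 675287 in WT and 665634 to 672327 in KO at day 0, and to 545885 to 553910 and 559949 to 580360 at day 2. The part of cell makeup in the differences was not tested.

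The day 1 pools, 1 array per genotype without a test, place some of these differences in time. Cdc20 was at 2902 in WT and 609 in KO, Ccnb2 at 1046 and 336, and E2f8 at 939 and 271, so these 3 were lower in the KO pool at day 1. Tnfrsf12a was at 783 in WT and 554 in KO, between its day 0 and WT day 2 levels in both. Mbl2 was at 14285 and 16366, Hspa1b at 4639 and 5030 and Dbp at 599 and 495. Dbp in the WT pool was thus below all 5 WT arrays of days 0 and 2, and Hspa1b in the WT pool above all of them. KO was above WT in the pools for 26 of the 39 day 2 genes with a higher difference and 24 of the 58 with a lower one, and for 5 of the 21 and 10 of the 21 day 0 genes, against 49.0% of all tested genes.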

How the data were processed

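Liver RNA was measured on 12 single-colour Affymetrix arrays. The authors deposited signal intensities computed with MAS5 (per the submitters' processing notes, version not given), and each array had been scaled so that the mean between its 2nd and 98th percentiles is 500. Arrays have no read depth, and their number limits the precision. The 10 arrays of days 0 and 2 were quantile-normalized as log2(intensity + 16). Of 45101 probe sets, 34945 name 1 gene, 932 several, 9160 none and 64 are controls; 18032 gene symbols were matched to RefSeq by gene ID. Probe sets had to exceed the array median at least 2 times among the 10 arrays, and the brightest one kept stood for its gene. The day 1 pools were set on the same distribution and not tested.

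Group means were fitted with limma 3.58.1 in R 4.3.3 (eBayes, trended and robust; 6 residual degrees of freedom), two-sided, with Benjamini-Hochberg adjustment over 13902 genes and calls under 0.05. A difference was set by 1 day when that day supplied at least 66.7% of it. Named genes are a panel of 13, the called genes with the largest differences of each set and direction, and up to 4 called members per list; Ccn1, Ccn2, Per2, Arntl, Smc2 and Gins1 were added after their values were seen. The members and gene lists were chosen with earlier results of these data known. Promoters come from RefSeq (GRCm38.p6). The fit was tested on simulated data. Replicate numbers do not pair the arrays: deviations of same-numbered arrays correlated at -0.03 to 0.03. Plots were drawn with matplotlib 3.10.9, and tables with pandas 2.3.3, under Python 3.11.15.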

Additional observations from a re-analysis of the deposited data

Results flagged for a closer look

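The test of the difference between the genotypes' responses itself (limma, adjusted p under 0.05) singled out 270 genes, and 70 of them are named. Values below are that difference, KO minus WT, on the log2 scale. Among named genes set by the day 2 level with a higher difference, it was 2.75 for Teddm2, 2.67 for Dnah5, 2.54 for Hspa1b, 2.19 for Ubox5, 1.93 for Mbl2 and 1.77 for Sbk1, and then 1.73 for Cdkl4, 1.64 for Zdhhc24, 0.93 for Tdo2, 0.75 for Akr1d1, 0.58 for Crp and 0.48 for Cyp2e1. Among named genes set by the day 2 level with a lower difference, it was -4.45 for Tubb6, -3.72 for Tnfrsf12a, -3.52 for H2-Q5, -3.12 for St6galnac6, -2.68 for B4galnt1, -2.64 for Nfic and -2.43 for Eif2b1, and then -2.40 for D17H6S56E-5, -1.99 for Ccnb2, -1.96 for Cdc20, -1.42 for Smc4, -1.29 for Pcna, -1.09 for Mcm7 and -1.09 for Hsd17b13. Among named genes set by the day 0 level with a higher difference, it was 3.37 for Dbp, 2.49 for Tac2, 2.29 for Zfp92, 2.01 for Oas1a, 1.73 for Nr1d2, 1.72 for Syt17 and 1.66 for Angptl8, and then 1.63 for Tef, 1.62 for Mcm4, 1.58 for Orm3, 1.19 for Zfp36, 1.12 for Vnn1, 0.93 for Ccnd1 and 0.84 for Cpt1a. Among named genes set by the day 0 level with a lower difference, it was -4.31 for Actr5, -3.92 for A330048O09Rik, -2.81 for Plk3, -2.75 for Igfbp1 and -2.74 for Samd1, and then -2.68 for E2f8, -2.20 for Pam16, -2.08 for Mex3c and -1.23 for Rrs1. Among named genes set by both levels with a higher difference, it was 3.54 for Gm12359, 3.45 for Speer8-ps1, 3.03 for Gpx6, 2.83 for Lao1, 1.68 for Cyp2b13 and 1.50 for Dusp6, and then 1.48 for Pnpla3, 1.46 for Slc2a2, 1.38 for Cyp2b9, 1.35 for Herpud1, 1.27 for Dnajb9 and 1.12 for Mcm10. Among named genes set by both levels with a lower difference, it was -4.60 for Denn2b, -4.58 for Gpsm2, -4.25 for Borcs7, -3.92 for Maz and -3.88 for Ccnf, and then -3.18 for Plk1, -1.44 for Rsad2, -1.17 for Btg1 and -0.99 for Nop16. For Actr5, B4galnt1, Ccnd1, Mcm4, Mcm7, Mex3c and Ubox5, 8 of the other probe sets gave the opposite direction, and over all called named genes 29 of 37 other probe sets gave the same direction.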

How the results depend on the processing

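Few arrays limit these results: leaving out each in turn gave 22 to 674 called genes (main 270), with 5 to 262 set by day 0 (42), 6 to 110 by day 2 (97) and 7 to 302 by both (131). A day 0 group with 1 array left is taken to have the spread of the remaining groups. With values as deposited 439 genes were called, 196 of them set by day 2, and with median centring 516, 288 by day 2. Without the filter on dim probe sets there were 173 (58 by day 2, 85 by both), with the mean of the probe sets 151 (54, 69) and with weights per array 165 (56, 77). The fit with a replicate block gave 117 (24 by day 0, 40 by day 2, 53 by both), and no trend or robust setting gave 35 (10, 11 and 14). An adjusted p under 0.01 left 7 (1, 5 and 1) and under 0.1 gave 853 (121, 330 and 402). With a share of 75% for a day, 25 genes were set by day 0 and 55 by day 2. By limma calls of KO against WT on each day, 14 passed at day 0 only and 202 at day 2 only. On both days 0 passed, and 54 passed on neither. Cyclic loess, all 12 arrays, pseudocounts of 1 and 64 and a filter on 5 arrays gave 315, 286, 245, 313 and 281 genes. Crp turned to -0.050 with median centring, and Cyp2e1 to -0.67 there and to -0.48 with values as deposited. Of the 800 results for named genes with 1 array left out, 379 lost the call, 2 gained it and 0 turned; of 952 under other settings, 181 lost it, 7 gained it and these 3 turned. A turn was counted only for genes called in the main fit or under the changed setting. Uncalled named genes near 0 did change sign with 1 array left out, such as Yap1 (-0.12 to 0.18) and Myc (-0.02 to 1.34). The cause of these changes was not tested.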
